A study of Mus musculus with 6 samples.

Results

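The transcripts described here encode subunits of respiratory complexes II to V, the part of the mitochondrial chain that carries electrons from succinate to oxygen and makes ATP. They were chosen by name: a probe was a member if its annotated symbol was Sdha, Sdhb, Sdhc, Sdhd, Cyc1 or Cycs or began with Uqcr, Cox4, Cox5, Cox6, Cox7, Cox8 or Atp5, and if it was detected (detection p under 0.05) on at least 3 of 6 arrays. Of 45281 probes on the array, 71 probes of 45 genes had such a symbol, and 54 of them, for 40 genes, were detected. They make up 54 of the 20006 probes detected by the same rule and tested. Complex II was read by 4 probes, complex III by 9, cytochrome c by 3, complex IV by 15 and complex V by 23. One member, Cox7a2l, helps complexes III and IV to join and is counted with complex IV; the 53 probes without it have the same median difference as all 54, 0.24. The members rest on annotated names alone: the sources used here give no probe sequences, and several of these genes are short, so signal shared with processed pseudogenes could not be checked.

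RNA came from the ventromedial hypothalamus (VMH), a hypothalamic nucleus that takes part in energy balance, of mice with a knockout of the transcription factor FoxO1 restricted to the VMH (KO) and of wild-type mice (WT). Each genotype had 3 Illumina Mouse-6 BeadChip arrays, and each array carried RNA pooled from 3 animals, none of them treated, on a mixed strain background. The sources used here give neither the Cre driver nor age or sex. In tissue RNA such as this, fewer cells of a type and less RNA per cell cannot be told apart.

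Complex II oxidises succinate and passes the electrons to ubiquinone. Complex III hands them to cytochrome c, complex IV passes them on to oxygen, and complexes III and IV pump protons across the inner mitochondrial membrane. Complex V, ATP synthase, lets protons flow back and makes ATP; in the brain most of the ATP that drives ion pumps and synapses comes from this route. Every member is encoded in the nucleus, while a few core subunits of complexes III, IV and V are encoded by mitochondrial DNA.

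All values below are log2 intensities after background correction, and a difference is KO minus WT on that scale. The KO 1 array stood apart from the rest, which touches every result. It correlated with the other arrays at a mean of 0.954, against 0.977 to 0.981 for the others, and 18771 probes were detected on it, against 19381 to 20445. Markers of exocrine pancreas, detected in both genotypes, were highest there: 25 of 26 genes with a probe were tested (Ctrc was not detected), and their mean was 11.43 on the KO 1 array, with 9.94 and 8.50 on the remaining KO arrays and 7.96 to 10.85 in WT. Their summed intensity ran from 20950 to 120600 in KO and from 14560 to 89010 in WT. All 15 VMH marker genes were detected, with sums of 32510 to 45250 in KO and 37190 to 41590 in WT. Also detected were 11 arcuate and other hypothalamic markers, 5 of them higher in KO and 6 lower. Among these 11, 3 (27.3%) lay below each WT array on each KO array, against 6.24% of all tested probes, and 0 lay above (8.84%). On its brighter probe Foxo1 itself averaged 7.01 ± 0.46 in KO, against 7.65 ± 0.18 in WT (mean ± SD of 3 arrays), and on the dimmer one 5.84 ± 0.69 in KO, against 5.50 ± 0.40 in WT, with limma adjusted p = 0.582 and 0.677. Where these probes lie relative to the deleted part is not given, so the values do not check the labels.

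Across complexes II to V most transcripts read slightly higher in KO, and none of them passed the test. The difference was above 0 for 45 of 54 member probes (83.3%, against 52.9% of all tested probes), with a median of 0.24, against 0.02 over all tested probes. Single differences ran from -0.49 for a probe of Atp5a1 to 0.60 for Cox7b. After Benjamini-Hochberg adjustment of limma's p over all tested probes, 0 members were under 0.05, where 0.005% of all tested probes were. The adjusted p of the members ran from 0.582 to 0.979. Before adjustment 4 members were higher at p under 0.05 (3.77% of all tested probes were) and 0 were lower (3.8%). The 4 were both tested probes of Cox5b, 1 of Uqcrc1 and 1 of Atp5j. With 1 array left out, members and the share of all tested probes higher by this rule were 2 without KO 1 (2.44%), 7 without KO 2 (6.28%), 8 without KO 3 (5.77%), 0 without WT 1 (1.46%), 1 without WT 2 (2.76%) and 1 without WT 3 (1.12%).

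**Figure D1:**
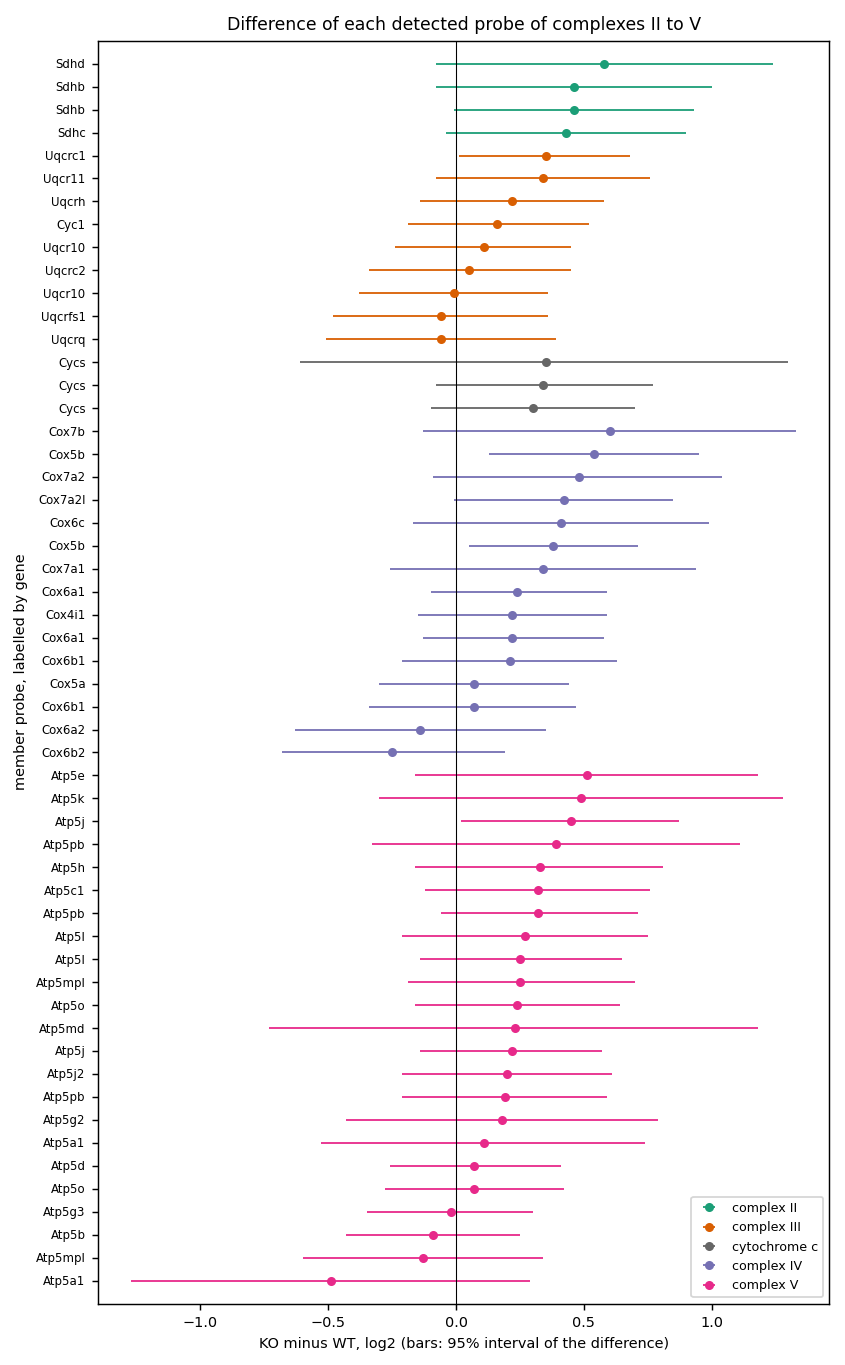
Each point is 1 member probe, labelled by its gene, with its KO minus WT difference in log2 units on the horizontal axis and the 95% interval of limma's fit as a bar; colours mark the complexes. Most points lie right of 0, from -0.49 to 0.60, and the intervals of both Cox5b probes, Uqcrc1 and 1 Atp5j probe do not reach 0 before any adjustment.

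Without overlap between genotypes the picture was similar. For 13 of 54 members (24.1%) each KO array exceeded each WT array, as did 8.84% of all tested probes. These 13 probes belong to 11 genes: Sdhb, Uqcrc1, Uqcr11, Cycs, Cox5b, Cox6a1, Cox7a2l, Cox7b, Atp5j, Atp5l and Atp5pb. No member lay below WT on all KO arrays, where 6.24% of all tested probes did. Without KO 1 the 13 probes above WT remain so by definition, and no other member joined them. The count was thus 13 again, against 11.5% of all tested probes. Fewer arrays make such separation easier: the members' count was 25 without KO 2 (19.3% of all tested probes), 20 without KO 3 (17.1%) and 23 without WT 2 (17.3%).

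KO 1 carried much of the size of the difference. It held the highest value of 45 of 54 members, and WT 3 held the lowest of 23. The median deviation of the members from their 6-array mean was 0.40, -0.03 and 0.02 on the KO arrays in order of number and -0.13, -0.08 and -0.19 on the WT arrays. KO 2 and KO 3 thus stood slightly above each WT array, and KO 1 far above them. Without KO 1 the members' median difference was 0.11, where all tested probes had 0.01, and 39 of 54 were positive (52.8% of all tested probes). With the pancreas mean as a covariate the median was 0.21.

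**Figure D2:**
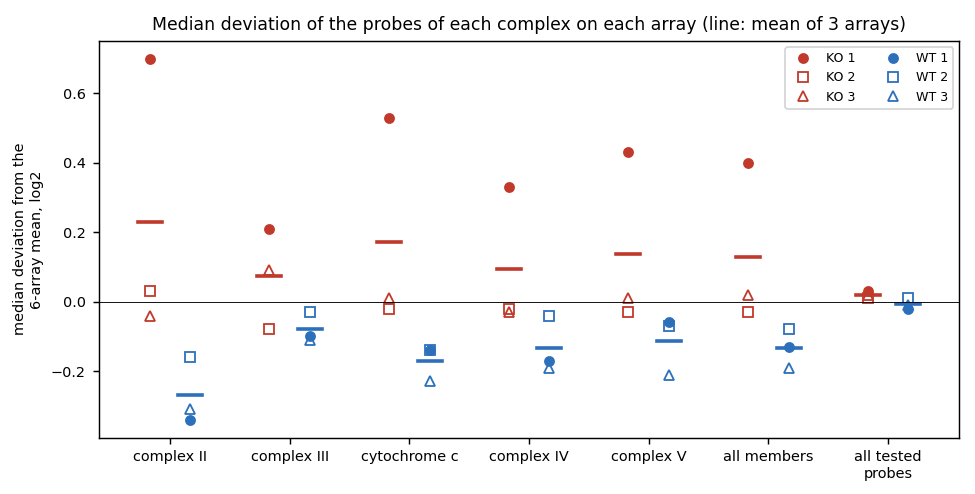
For each complex, for all members and for all tested probes, points give the median deviation of the probes from their 6-array mean in log2 units, 1 point per array, with KO arrays in red left of WT arrays in blue and a line at the mean of 3 arrays. KO 1 is the highest point of each complex, from 0.21 in complex III to 0.70 in complex II, and all tested probes together stay between -0.02 and 0.03.

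The length of the annotated gene moved with the same difference. Members are mostly compact genes, with a median span of 6916 bases, against 25850 bases over tested probes with a span. The 16804 tested probes with a span were put in 10 equal bins by span. The median difference was 0.18 in the shortest bin and 0.10 in the next one, and -0.09 in the longest. The members in the 2 shortest bins, 19 in each, had medians of 0.30 and 0.22. The same medians without KO 1 were 0.09 in the shortest bin and -0.03 in the longest. Among all tested probes of genes no longer than the median member, 72.1% were positive, with a median difference of 0.15. Of these probes 16% separated the genotypes with KO above. Whether span or KO 1 accounts for the members' difference was not tested. When a trend on span was removed from each array, the members' median was 0.16. On all arrays 8 members stayed above WT (8.22% of tested probes with a span), all 8 from the 13 before. All tested probes at least as bright as the median member had a median difference of 0.01; other levels of brightness were not examined.

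**Figure D3:**
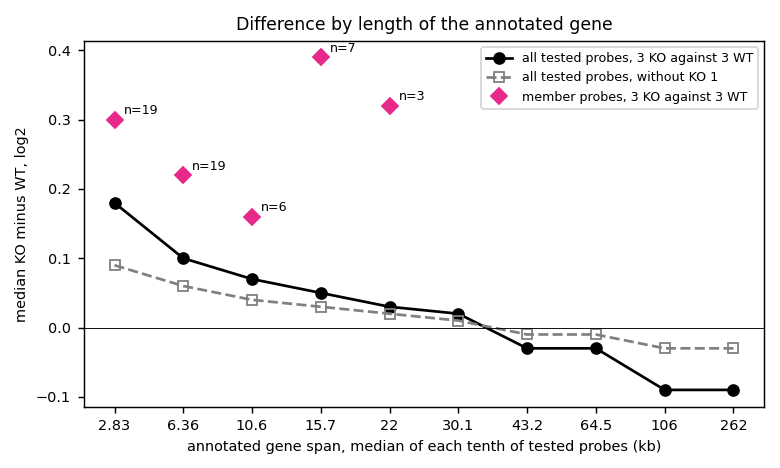
Tested probes with a span are divided into 10 equal bins by the span of their annotated gene. The horizontal axis gives the median span of each bin in kilobases, the vertical axis the median KO minus WT difference in log2 units. Black circles give all tested probes with a span, grey squares the same without KO 1, and pink diamonds the member probes with their number. The black line runs from 0.18 to -0.09, and the members lie above it in each bin that holds any.

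Promoter sequences are shown for the gene with the smallest p in each complex, cytochrome c included, because their transcripts lean the same way, and for Atp5b, whose difference is the lowest among complex V genes with a single probe. Each sequence covers 250 bases before to 50 after the annotated start (RefSeq, GRCm38.p6), 5′ to 3′ on the gene's strand, and capitals mark motif matches on either strand.
Sdhb (chr4:140961021-140961320, plus strand): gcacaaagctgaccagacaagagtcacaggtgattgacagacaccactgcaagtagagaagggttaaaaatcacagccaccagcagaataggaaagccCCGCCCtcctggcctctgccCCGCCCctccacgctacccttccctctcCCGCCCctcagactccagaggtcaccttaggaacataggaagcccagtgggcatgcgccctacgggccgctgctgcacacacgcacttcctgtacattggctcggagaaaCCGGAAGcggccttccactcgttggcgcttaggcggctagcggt
Uqcrc1 (chr9:108936398-108936697, plus strand): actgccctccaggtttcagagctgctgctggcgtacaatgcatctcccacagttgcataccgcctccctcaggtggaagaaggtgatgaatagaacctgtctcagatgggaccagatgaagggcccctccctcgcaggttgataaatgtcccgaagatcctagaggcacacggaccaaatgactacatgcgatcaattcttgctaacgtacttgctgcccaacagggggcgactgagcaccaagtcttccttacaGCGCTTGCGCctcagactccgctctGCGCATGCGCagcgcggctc
Cycs (chr6:50566520-50566819, minus strand): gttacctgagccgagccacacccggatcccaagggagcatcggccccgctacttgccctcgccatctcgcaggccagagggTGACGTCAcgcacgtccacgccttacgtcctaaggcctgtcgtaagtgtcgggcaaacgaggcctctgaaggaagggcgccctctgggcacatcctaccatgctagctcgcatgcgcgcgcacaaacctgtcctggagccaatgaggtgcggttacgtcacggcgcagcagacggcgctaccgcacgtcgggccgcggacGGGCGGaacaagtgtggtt
Cox5b (chr1:36691237-36691536, plus strand): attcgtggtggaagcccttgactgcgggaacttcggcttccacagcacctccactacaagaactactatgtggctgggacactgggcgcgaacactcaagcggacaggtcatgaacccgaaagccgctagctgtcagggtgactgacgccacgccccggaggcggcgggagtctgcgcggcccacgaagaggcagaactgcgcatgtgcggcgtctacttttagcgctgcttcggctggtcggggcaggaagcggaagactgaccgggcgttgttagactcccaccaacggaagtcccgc
Atp5j (chr16:84835576-84835875, minus strand): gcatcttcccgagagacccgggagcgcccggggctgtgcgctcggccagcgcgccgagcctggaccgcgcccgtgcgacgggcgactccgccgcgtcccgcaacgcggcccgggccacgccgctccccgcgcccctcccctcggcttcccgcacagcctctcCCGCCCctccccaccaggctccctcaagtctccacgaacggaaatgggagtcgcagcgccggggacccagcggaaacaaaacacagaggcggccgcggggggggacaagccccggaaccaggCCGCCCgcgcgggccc
Atp5b (chr10:128083057-128083356, plus strand): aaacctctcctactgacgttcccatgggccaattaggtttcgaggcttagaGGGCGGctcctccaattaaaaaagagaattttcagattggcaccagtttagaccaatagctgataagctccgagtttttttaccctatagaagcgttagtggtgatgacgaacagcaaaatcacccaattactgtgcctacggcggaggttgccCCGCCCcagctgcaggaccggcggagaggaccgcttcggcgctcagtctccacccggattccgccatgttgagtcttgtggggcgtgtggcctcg
A total of 7 motifs of factors known to act on respiratory genes, or of FoxO, were searched in the first listed start of each gene: NRF1 (GCGCA and GCGC with any base between them), GABPA (CCGGAAG), YY1 (AAGATGGC), ERR (TCAAGGTCA), SP1 (GGGCGG), CREB (TGACGTCA) and FoxO (GTAAACA). Of the 40 member genes 31 had a sequence. The NRF1 letters stood in 8 of 31 member promoters (25.8%) and in 4.78% of all 27025 promoters, and those of GABPA in 11 of 31 (35.5%) and 9.12% of all. SP1 letters were in 14 of 31 (45.2%, against 35.9% of all), and those of YY1, ERR and CREB in 2 of 31 each (6.45%, against 2.88%, 0.407% and 1.88%). The FoxO letters were in 1 of 31 (3.23%), that of Cox7a2, and in 3.55% of all promoters. Of the sequences shown, Uqcrc1 holds 2 NRF1 matches, Sdhb 1 GABPA and 3 SP1 matches, Cycs 1 SP1 and 1 CREB match, Atp5j and Atp5b 2 SP1 matches each, and Cox5b none, and no matches overlap. A match is a description of these letters, not a bound site.

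Complex II had the largest median of the complexes, 0.46 over 4 probes of 3 genes, and all 4 were positive. Sdhb, the iron-sulfur subunit that passes electrons on from the flavoprotein, read 11.64, 11.08 and 10.94 in KO and 10.86, 10.79 and 10.63 in WT on one probe (ILMN_2769065), a difference of 0.46 (SE 0.21; limma adjusted p = 0.582). Its other probe gave 11.58, 10.79 and 10.78 in KO, against 10.55, 10.76 and 10.46 in WT, also 0.46. The genotypes did not overlap on either probe, but KO 2 and KO 3 lay close to the highest WT array. Sdhc, a membrane anchor of the complex, read 12.07, 11.59 and 11.95 in KO and 11.12, 11.54 and 11.68 in WT, a difference of 0.43. KO 2 lay below WT 3, and WT 1 stood low. Sdhd, the other membrane anchor, read 8.73, 7.82 and 7.52 in KO and 7.34, 7.53 and 7.48 in WT, a difference of 0.58 in which KO 1 stood alone and KO 3 overlapped with WT. Sdha, the flavoprotein that binds succinate, was at background on all 6 arrays (detection p 0.168 to 0.403) and has no value here. The median of complex II was 0.24 without KO 1, and without both arrays numbered 1 it was 0.17. With the span trend removed the probes of complex II changed little. They then differed by 0.44 and 0.43 for Sdhb, 0.41 for Sdhc and 0.50 for Sdhd.

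Complex III had the smallest median of the complexes, 0.11 over 9 probes of 8 genes, and 6 of the probes were positive. Uqcrc1, a core protein of the complex, read 12.29, 12.21 and 12.07 in KO and 11.77, 11.91 and 11.84 in WT. Its difference of 0.35 (SE 0.15; 95% interval 0.01 to 0.68; unadjusted p = 0.046, limma adjusted p = 0.582) was carried evenly by the KO arrays and stayed between 0.30 and 0.41 when any array was left out. The partner core protein Uqcrc2 read 13.36, 12.85 and 13.02 in KO and 13.04, 13.02 and 13.02 in WT, a difference of 0.05 (interval -0.34 to 0.45). KO 1 lay above and KO 2 below a WT group that barely varied, and without KO 1 the difference was -0.09.

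Among the small subunits of complex III, Uqcr11 read 13.18, 12.59 and 12.81 in KO and 12.53, 12.55 and 12.48 in WT, 0.34 apart without overlap. Uqcrh, the hinge protein next to cytochrome c1, read 13.67, 13.30 and 13.49 in KO and 13.25, 13.31 and 13.24 in WT, 0.22 apart with KO 2 below WT 2. Uqcr10 gave 0.11 on its brighter probe (13.79, 13.53 and 13.68 in KO against 13.52, 13.66 and 13.50 in WT) and -0.01 on the other (13.63, 13.24 and 13.37 in KO against 13.41, 13.49 and 13.37 in WT). Both probes overlapped between genotypes, and neither shows a lean.

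Of the redox subunits of complex III, Cyc1, which is cytochrome c1, differed by 0.16 (11.46, 11.36 and 11.43 in KO against 11.09, 11.43 and 11.25 in WT). Uqcrfs1, the Rieske iron-sulfur protein, read 4.94, 5.37 and 5.38 in KO and 5.28, 5.47 and 5.12 in WT, near background, with detection on 2 KO and 2 WT arrays. Uqcrq, a small subunit, read 8.06, 7.78 and 8.26 in KO and 8.20, 7.81 and 8.28 in WT. These last probes differed by -0.06 each, with wide overlap. Leaving out 1 array at a time put the complex III median between 0.08 and 0.17 (highest without KO 2), and removal of the span trend put it at 0.02.

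Cytochrome c, the soluble carrier between complexes III and IV that also triggers cell death when released, was read by 3 probes of Cycs. The brightest (ILMN_1250564) read 12.45, 11.90 and 11.93 in KO and 11.78, 11.78 and 11.68 in WT, a difference of 0.34 (SE 0.19; limma adjusted p = 0.582) without overlap. The next (ILMN_3076459) read 7.37, 6.87 and 7.25 in KO and 6.82, 6.87 and 6.88 in WT, 0.30 apart, with KO 2 level with the WT arrays. The dimmest (ILMN_3155380) read 7.68, 7.01 and 6.03 in KO and 7.17, 6.42 and 6.10 in WT, 0.35 apart, and varied more within each genotype than between them. The median of the 3 was 0.16 without KO 1, where the dimmest probe gave -0.04, and 0.18 without background correction.

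Complex IV had a median of 0.24 over 15 probes of 12 genes, 13 of them positive. Cox5b, a zinc-binding subunit on the matrix side, read 12.19, 11.80 and 11.95 in KO and 11.19, 11.54 and 11.58 in WT on one probe (ILMN_2772319). That is a difference of 0.54 (SE 0.18; 95% interval 0.13 to 0.95), or 1.46-fold, with unadjusted p = 0.0156 and limma adjusted p = 0.582. The brighter probe (ILMN_1241962) read 14.08, 14.01 and 13.99 in KO and 13.64, 13.57 and 13.73 in WT, a difference of 0.38 (interval 0.05 to 0.71; unadjusted p = 0.0279) or 1.30-fold. On both probes the lowest KO array exceeded the highest WT array, and without KO 1 the differences were 0.44 and 0.35. Leaving out any array kept the differences between 0.42 and 0.63 and between 0.34 and 0.42, and removal of the span trend gave 0.37 and 0.21. After that removal the genotypes no longer separated on both probes.

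**Figure D4:**
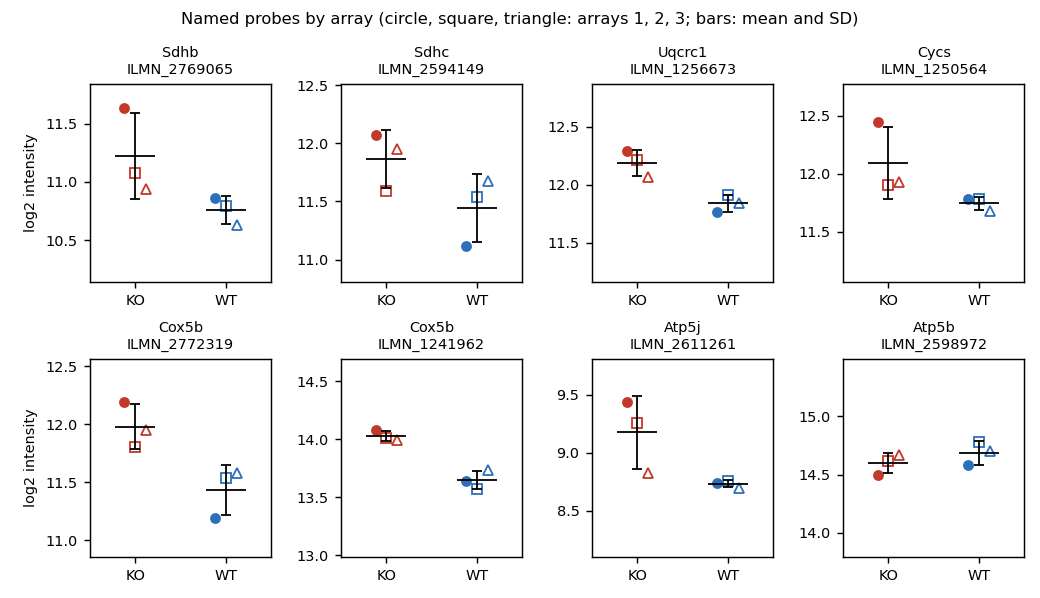
Log2 intensity of 8 member probes on each array, KO left of WT, with circle, square and triangle for arrays 1, 2 and 3 and bars for mean and SD; each panel spans the same range in log2 units. Both Cox5b probes and Uqcrc1 separate the genotypes on each array, Sdhb and Cycs separate with KO 1 far above, Sdhc overlaps, and Atp5b lies at 14.59 in KO and 14.68 in WT.

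Other common subunits of complex IV leaned the same way with less separation. Cox4i1, the common form of the subunit that senses ATP, read 14.03, 13.62 and 13.79 in KO and 13.56, 13.67 and 13.56 in WT, 0.22 apart with KO 2 below WT 2. The Cox6a1 probes differed by 0.24 (13.47, 13.38 and 13.35 in KO against 13.00, 13.30 and 13.16 in WT, without overlap) and 0.22. Cox6b1 differed by 0.07 on its brighter probe (13.41, 12.91 and 13.21 in KO against 12.99, 13.22 and 13.13 in WT) and 0.21 on the other, which both overlapped and gave -0.05 and 0.04 without KO 1. Cox5a, a small subunit on the matrix side, differed by 0.07 (interval -0.30 to 0.44). Cox6c differed by 0.41, Cox7a2 by 0.48 and Cox7b by 0.60, and in each of these KO 1 was the highest array. For Cox7b, KO 1 read 8.63, KO 2 and KO 3 read 7.43 and 7.36, and WT read 7.33, 7.24 and 7.04. Its difference was thus 0.19 without KO 1. Cox7a2 read 9.50, 8.75 and 8.64 in KO and 8.67, 8.54 and 8.24 in WT. Cox7a2l, the factor that joins complexes III and IV, read 12.32, 11.72 and 11.99 in KO and 11.57, 11.72 and 11.50 in WT, 0.42 apart and with KO 2 just above WT 2.

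The isoforms of complex IV that are known from muscle, lung or testis were dim or at background. The common subunit Cox7b was dim as well, with means of 7.81 in KO and 7.20 in WT. Cox6a2, the heart and skeletal muscle form, read 8.33, 7.71 and 8.03 in KO and 7.85, 8.23 and 8.40 in WT, a difference of -0.14 (interval -0.63 to 0.35). Cox7a1, also known from heart and muscle, read 8.24, 7.21 and 7.33 in KO and 7.22, 7.32 and 7.21 in WT. Its difference of 0.34 was 0.02 without KO 1. Cox6b2, the testis form, read 5.62, 5.37 and 5.08 in KO and 5.39, 5.72 and 5.69 in WT, a difference of -0.25 (interval -0.68 to 0.19). Cox4i2, Cox7b2 and Cox8c were detected on no array, and Cox8b on 1. Over complex IV the median was 0.18 without KO 1 and 0.14 with the span trend removed.

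Complex V had a median of 0.23 over 23 probes of 16 genes, 19 of them positive. In the catalytic head, Atp5b, the beta subunit, read 14.50, 14.62 and 14.67 in KO and 14.58, 14.78 and 14.70 in WT, a difference of -0.09 (interval -0.43 to 0.25). The alpha subunit Atp5a1 gave 0.11 on its brighter probe (10.47, 10.05 and 9.38 in KO against 10.15, 9.62 and 9.80 in WT). Its dimmer probe gave -0.49 (7.09, 6.39 and 7.16 in KO against 7.60, 6.61 and 7.88 in WT). The Atp5a1 probes thus disagreed in sign, and both overlapped between genotypes; without KO 1 they gave -0.14 and -0.59.

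In the rotor, Atp5c1, the gamma subunit, read 13.19, 12.88 and 12.52 in KO and 12.58, 12.58 and 12.47 in WT, a difference of 0.32 with KO 3 inside the WT range. Atp5d, the delta subunit, differed by 0.07 (interval -0.26 to 0.41). Atp5e, the epsilon subunit, read 8.07, 6.87 and 7.15 in KO and 6.86, 7.04 and 6.65 in WT, 0.51 apart with KO 1 far above the rest, and 0.16 apart without it. Atp5g2 and Atp5g3, which encode the same mature c subunit of the membrane ring, differed by 0.18 and -0.02. The interval for Atp5g3 was -0.35 to 0.30, and Atp5g2, with KO 1 at 10.46 and both remaining KO arrays within the WT spread or below it, gave -0.13 without KO 1.

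The peripheral stalk, which holds the head still against the rotor, leaned higher in KO on each of its probes. Atp5j, coupling factor 6, read 9.44, 9.26 and 8.83 in KO and 8.74, 8.76 and 8.70 in WT on its dimmer probe (ILMN_2611261). That difference was 0.45 (SE 0.19; interval 0.02 to 0.87; unadjusted p = 0.0425, limma adjusted p = 0.582), with each KO array above WT. The brighter Atp5j probe read 13.42, 13.14 and 13.26 in KO and 13.18, 12.97 and 13.02 in WT, 0.22 apart, with KO 2 below WT 1. The 3 probes of Atp5pb, subunit b, differed by 0.32, 0.39 and 0.19. The first of them (ILMN_1249817) read 11.69, 11.29 and 11.29 in KO and 11.07, 11.17 and 11.05 in WT without overlap, and the other probes overlapped, with -0.01 and 0.07 without KO 1. Atp5h, subunit d, differed by 0.33, and Atp5o, which ties the stalk to the head, by 0.07 on its brighter probe and 0.24 on the other. These were 0.11, -0.03 and 0.11 without KO 1.

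The small membrane subunits of complex V differed by 0.20 for Atp5j2, 0.49 for Atp5k, 0.25 and 0.27 for Atp5l, 0.23 for Atp5md, and 0.25 on the brighter probe of Atp5mpl. Only 1 Atp5l probe (13.84, 13.40 and 13.44 in KO, against 13.31, 13.38 and 13.23 in WT) separated the genotypes, with KO 2 just above WT 2. KO 1 was the highest array for each of these probes, and without it Atp5k gave 0.06 and Atp5md -0.25. The dimmer Atp5mpl probe read 5.98, 5.42 and 6.10 in KO and 6.03, 5.83 and 6.01 in WT, a difference of -0.13. Leaving out KO 1 brought the median of complex V to 0.06, and with the span trend removed it was 0.16.

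**Figure D5:**
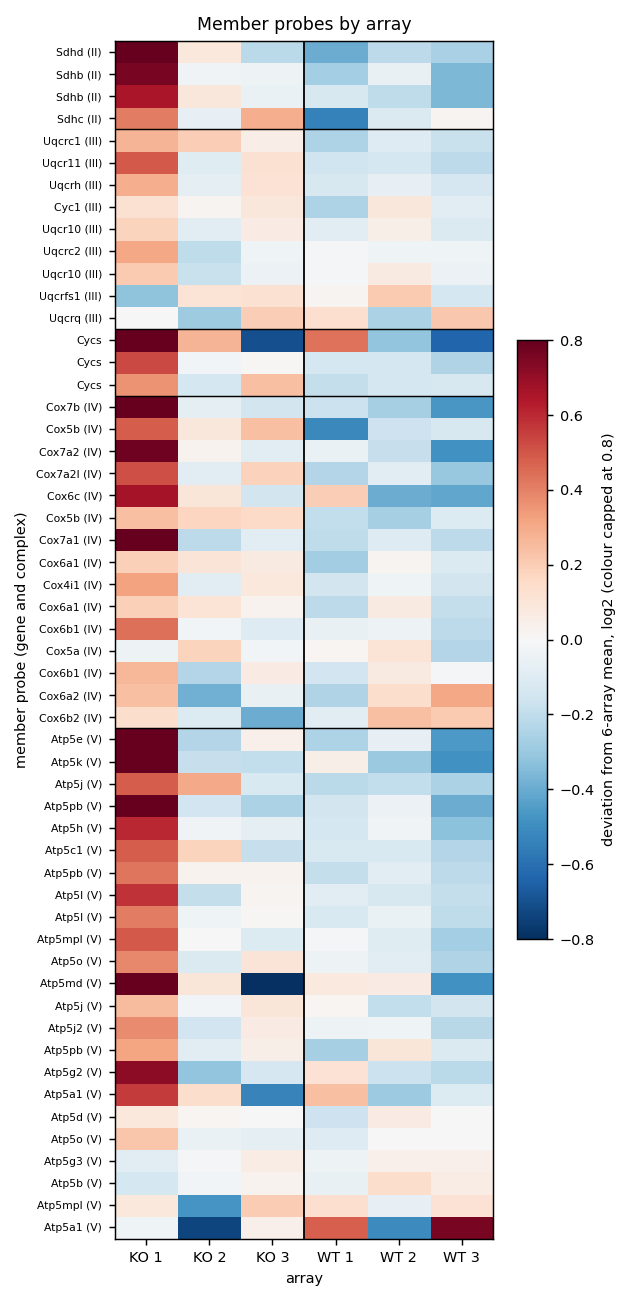
Rows are the 54 member probes with gene and complex, columns the 6 arrays with KO left of WT, and colour gives the deviation of each value from the probe's 6-array mean in log2 units, capped at 0.8. KO 1 is the highest array in 45 of 54 rows, KO 2 and KO 3 are mostly pale, and WT 3 is the lowest array in 23 rows.

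Probes of the same gene were mostly alike. Of the 12 genes with more than 1 member probe, Atp5a1, Atp5mpl and Uqcr10 had probes of opposite sign, and in the other genes the probes differed by 0.23 or less. A further 17 probes with member symbols were left out as undetected: 12 of them belong to genes with another, detected probe, and 5 are the only probe of Sdha, Cox4i2, Cox7b2, Cox8b and Cox8c.

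Factors that assemble complexes II to V leaned in the same direction as the subunits. Of 36 tested assembly genes 31 were positive (52.9% of all tested probes were), with a median of 0.23, against 0.02 over all tested probes. Past the adjusted threshold were 0 of them (limma, smallest adjusted p = 0.582). Before adjustment 5 genes were higher at p under 0.05 and 0 lower (3.77% and 3.8% of all tested probes). Of 36 genes 11 (30.6%) lay above WT on each array, against 8.84% of all tested probes. Below WT on each array lay 2 (5.56%), against 6.24%. Without KO 1 the 11 genes above WT remain so by definition. No further gene joined them, where 11.5% of all tested probes lay above WT. Higd1a, a protein induced by low oxygen that acts on complex IV, read 7.28, 6.71 and 6.66 in KO and 6.32, 6.14 and 6.11 in WT, a difference of 0.70 (SE 0.20). Tmem70, which assembles complex V, read 9.20, 8.53 and 8.40 in KO and 8.14, 8.02 and 7.97 in WT, 0.66 apart. Both separated the genotypes on each array.

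The complex II factors Sdhaf1 and Sdhaf3, which help insert iron-sulfur clusters into Sdhb, differed by 0.54 and 0.52. Coa6, which brings copper to complex IV, differed by 0.60. On the lower side Cox15, a haem A synthesis enzyme, read 8.02, 8.43 and 8.47 in KO and 8.62, 8.80 and 8.56 in WT, a difference of -0.36, and Oxa1l, the insertase of the inner membrane, differed by -0.26. The inhibitor of ATP synthase, Atpif1, differed by 0.25 on its brighter probe and -0.43 on the dimmer one. The median of the assembly list was 0.09 without KO 1 and 0.18 with the span trend removed. With that trend removed 6 genes lay above WT on each array, against 8.22% of tested probes with a span.

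Transcription factors and coactivators that act on respiratory genes showed no common lean. Of 13 tested genes 5 were positive, with a median of -0.03. At an unadjusted p under 0.05 (limma) 0 were higher and 0 lower, where 3.77% and 3.8% of all tested probes were. Ppargc1a, the best known coactivator of mitochondrial genes, averaged 7.96 ± 0.19 in KO and 8.19 ± 0.09 in WT (SD), with KO 3 at 8.13 above WT 2 at 8.09. Tfam, which packages and transcribes mitochondrial DNA, differed by 0.41 and 0.43 on its probes, with KO 1 the highest array on each. Nrf1 differed by -0.22 and Esrra by 0.16. Polrmt, the mitochondrial RNA polymerase, differed by -0.59, with 8.87, 10.15 and 10.17 in KO against 10.21, 10.23 and 10.52 in WT, and by -0.16 without KO 1.

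Other mitochondrial genes were mixed. Of 13 tested carriers, pores and matrix proteins 9 were positive on the brightest probe of each gene (52.9% of all tested probes were), with a median of 0.11. Their median was 0.10 without KO 1 and 0.12 with the span trend removed, where the members of complexes II to V had 0.11 and 0.16. At an unadjusted p under 0.05 (limma) 0 were higher and 0 lower, against 3.77% and 3.8% of all tested probes. Immt, which shapes the cristae of the inner membrane, differed by 0.11 on that probe. Its dimmer probe lay near background and was detected on 4 of 6 arrays. It read 5.18, 5.24 and 5.81 in KO and 6.40, 5.82 and 6.54 in WT. That is a difference of -0.84 (SE 0.25; unadjusted p = 0.00846, limma adjusted p = 0.582) without overlap, but with KO 3 only just below WT 2. Slc25a4, which exchanges ATP for ADP, differed by 0.68 (0.31 without KO 1), and its relative Slc25a5 by 0.25 (12.59, 12.41 and 12.47 in KO against 12.22, 12.37 and 12.14 in WT). Citrate synthase, Cs, read 10.47, 10.95 and 10.71 in KO and 10.99 to 11.03 in WT, a difference of -0.30 with each KO array below WT. Vdac1, a pore of the outer membrane, differed by -0.24 on its brighter probe and 0.01 on the other. Ndufa4, a complex IV subunit whose symbol falls outside the naming rule, differed by 0.11.

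Markers of other cells moved beside these values, and their part in the difference was not tested. Red cell markers were higher in KO for 5 of 5 tested genes on the brightest probe of each (52.9% of all tested probes were higher). Their summed intensity was 16030 to 19340 in KO and 11760 to 13720 in WT, and Slc4a1 and Epb42 were not detected. The median difference was 0.62, and 0.67 without KO 1. Dimmer probes differed by -0.84 to 0.87 for Hbb-bs and by -0.27 to 0.53 for Hbb-bt. Microglia markers were higher for 10 of 12, with sums of 3082 to 4519 in KO and 2333 to 3185 in WT, and Itgam was not detected. Their mean was highest on KO 1, at 8.33, with 7.85 and 7.81 on the remaining KO arrays and 7.41 to 7.82 in WT. The median difference of these markers was 0.49, and 0.15 without KO 1, where 11 of 12 were higher. The 10 tested neuronal markers were higher for 5 and lower for 5, with sums of 46230 to 63770 in KO and 62420 to 65360 in WT, while the probes of Snap25 and Nefl were not detected. The neuronal mean was lowest on KO 1, at 11.19, with 11.54 and 11.42 on the remaining KO arrays and 11.46 to 11.49 in WT. Astrocyte markers summed to 46200 to 53900 in KO and 48910 to 51600 in WT, and oligodendrocyte markers to 35210 to 38440 in KO and 36080 to 38550 in WT, with Olig2 not detected. Of 9 tested vascular markers 7 were lower, with sums of 2549 to 2899 in KO and 2704 to 3417 in WT, and Kdr was not detected.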

How the data were processed

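Signals of 6 arrays, 3 KO and 3 WT, were analysed; samples were grouped by their titles. Per the file headers, the deposited table gives a probe intensity on a linear scale and a detection p-value per array. The intensity values of the authors, although described as not normalized, had the same distribution on each array (sorted signals differ by at most 0.4), and the authors' deposited log2 values equal the log2 of these signals within 5e-05. Partek Genomics Suite 6.5 is named in the series' design text; no source used here states how they were normalized. No depth exists for arrays, and their number limits precision.

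Signals were processed with neqc of limma 3.58.1 in R 4.3.3 (background from the detection p, normexp, offset 16, quantile, log2). Probes with detection p under 0.05 on at least 3 of 6 arrays were tested with lmFit and eBayes, two-sided, without covariates, with Benjamini-Hochberg adjustment over 20006 probes. SE and intervals come from that fit. Symbols came from the platform annotation and were updated by Entrez identifier (RefSeq, GRCm38.p6), which also gave gene spans; the array files name no build. For lists, the brightest tested probe stood for its gene. The members and lists were chosen with earlier results of these data known. Values on each array are given for the 3 members of each complex with the smallest p in each direction, tissue-restricted isoforms, Cycs and the dimmest and brightest members; the remaining ones were named after their values were seen. The fit was tested on simulated data.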

Additional observations from a re-analysis of the deposited data

How the results depend on the processing

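In each of 20 alternatives 0 members passed an adjusted p of 0.05 by limma, so these settings say nothing about the stability of a call. The single call over all tested probes (main count 1) became 0 without background correction, with the authors' deposited value table, an offset of 50, cyclic loess, no filter, the strict filter, an intensity trend, the replicate block or the pancreas covariate, and 0 to 1 when each array was left out. Members higher at an unadjusted p under 0.05 numbered 4 (3.77% of all tested probes), against 8 without background correction or with the authors' table (3.88%), 7 without a filter (3.54%), 2 with cyclic loess (2.79%), the pancreas covariate (2.45%) or the brightest probe per gene, 1 with the span trend removed (3.32%), 0 without both arrays numbered 1 (1.74%), and 0 to 8 when each array was left out (1.12% to 6.28%). Members lower by this rule numbered 0 (3.8%), against 1 with array weights (4.03%), the replicate block (5.71%) or the span trend removed (3.12%), 2 without both arrays numbered 1 (1.4%), and 0 to 1 when each array was left out (1.07% to 6.93%). Members above WT on all KO arrays numbered 13 (8.84%), against 8 with the span trend removed (8.22%) and 13 to 25 when each array was left out (11.2% to 19.3%). Shares with the span trend removed are over the 16804 tested probes with a span. Members with a positive difference numbered 38 to 49, against 45, and 34 of 40 with the brightest probe per gene. The median of complex II, 0.46, was 0.17 without both arrays numbered 1. Of 24 probes named by the rule, 14 of 453 values under an alternative reversed; the cause was not tested. They were Uqcrfs1 (0.10 with array weights, 0.08 without both arrays numbered 1, and -0.14 to 0.09 with each array left out), 1 Cycs probe (-0.06 with array weights, -0.04 to 0.78 with each array left out), Uqcrq (-0.20 to 0.07), the dimmer Uqcr10 probe (-0.12 to 0.08), Cox6a2 (-0.29 to 0.02) and the dimmer Atp5mpl probe (-0.26 to 0.08), the last 4 ranges with each array left out. Cox7a1 was at 0 without both arrays numbered 1. Arrays of the same replicate number shared deviations unevenly (correlations 0.146, 0.004 and 0.402 over probes). Of the arrays, 5 of 6 correlated best with their own number in the other genotype, a hint from the data only. Whether the numbers pair the samples was thus not settled. The replicate block left each difference the same and moved no other count by over 1.5 times. No group holds enough arrays for a test of outlying samples.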
